A study of Homo sapiens with 6 samples.

Results

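The genes of the distal long arm of chromosome 3 (3q) were examined across 6 RNA sequencing libraries of SUM159, an established human triple-negative breast cancer cell line. The members were chosen by position and level: protein-coding genes that start at 110 Mb or later on chromosome 3 (GENCODE release 29, GRCh38) and reach a mean of 8 CPM or more over the 6 libraries, where CPM is a gene's counts per 1000000 counts of the library. The region holds 502 protein-coding genes in the table, of which 249 lay under 8 CPM and 20 were set aside by name in the rule, which left 233 of the 9530 protein-coding genes expressed at this level. The stretch itself was picked with the ratio of ITGB4-high cells to control already known, so every value of that ratio below is a description. The rule also names the ratio of each lung library to its own clone's control, so the members' lung ratios are described likewise.

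ITGB4 encodes the integrin beta-4 subunit of hemidesmosomes, and the labels separate the cells by it. The groups were ITGB4-high cells in culture (n = 1), untreated ITGB4-low cells in culture (control, n = 2, clones 1 and 3), ITGB4-low cells from mouse lungs that also received LM2 cells, a lung-seeking line (n = 2, clones 1 and 3), and ITGB4-low clone 1 from lungs of mice given bleomycin, a lung-injuring drug, through the trachea (n = 1). Lung cells had been injected into the tail vein, recovered, kept in dishes overnight and sorted for tdTomato, so passage through the animal goes with the trigger in all 3 lung libraries. Each ITGB4-low line is 1 clone, the treatment text names clone 1 alone, and clone 3 for the other LM2 library rests on its title. Nothing in the labels says that the libraries of a group came from separate cultures or animals, so a p-value reflects only how far these libraries vary, which may be technical.

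The libraries held 13607953 to 22222121 counts each, and 3 counts, the limit that a count of 0 allows, correspond to 0.135 to 0.22 CPM, counting error only. ITGB4 had 383 CPM in ITGB4-high cells, 25.9 and 24.6 in control clones 1 and 3, 470 and 441 in LM2 lung clones 1 and 3, and 305 in the bleomycin lung library. The 4 mesenchymal markers summed to 6078 CPM in ITGB4-high cells, 13680 and 14055 in controls and 7918 to 10950 in lung libraries. Among them VIM was between 2171 and 3596 CPM in every library, while FN1 was at 1941 CPM in ITGB4-high cells against 9623 and 9686 in controls, and ZEB1 at 112 against 311 and 278. CD44 was not lower as FN1 and ZEB1 were. It had 469 CPM in ITGB4-high cells and 422 and 494 in control clones 1 and 3. LM2 lung clones 1 and 3 had 958 and 493, and the bleomycin library 726. The 4 epithelial markers summed to 116 CPM in ITGB4-high cells, 159 and 176 in controls and 166 to 206 in lung libraries, made up of KRT8 (29.4 to 92.5) and KRT18 (80.9 to 117), with EPCAM and CDH1 at 0.192 CPM or less. The 7 leukocyte and macrophage markers summed to 1.53 CPM in ITGB4-high cells, 1.19 to 2.28 in controls and 1.34 to 6.21 in lung libraries, with AIF1 at 0 in all 6. PTPRC was at 2.32 CPM in LM2 lung clone 1 and 2.69 in the bleomycin library, beside 0.255 or less elsewhere. The 3 endothelial markers summed to 3.06 CPM in ITGB4-high cells, 2.01 and 2.39 in controls, and 2.40 and 3.77 in LM2 lung clones 1 and 3. The bleomycin library had 9.47, mostly PECAM1 (9.41), and CDH5 was at 0 in all 6. The 5 lung epithelial markers summed to 2.48 in ITGB4-high cells, 2.11 and 2.56 in controls and 3.19 to 3.95 in lung libraries. These were mostly AGER (1.79 to 3.79), with SFTPC and SCGB1A1 at 0 in all 6. The 5 fibroblast genes, which mesenchymal tumour cells also make, summed to 199 CPM in ITGB4-high cells, 124 and 161 in controls and 499 to 822 in lung libraries; their part in the results below was not tested.

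Genes on a chromosome arm have little in common in function, and they are usually read as a group because gain or loss of an arm alters the dose of all genes on it. Distal 3q is among the segments most often gained in squamous and basal-like cancers, and it carries the PI3-kinase subunit gene PIK3CA, the atypical protein kinase C gene PRKCI, the stem cell factor gene SOX2 and the translation factor gene EIF4G1. DNA was not measured in these libraries, so the values below are RNA levels.

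In ITGB4-high cells the distal 3q genes stood above the controls as a group. The members took 3.47% of all counts in ITGB4-high cells, 2.81% and 2.83% in control clones 1 and 3, 2.61% and 2.67% in LM2 lung clones 1 and 3, and 2.66% in the bleomycin lung library. The highest share was that of ITGB4-high cells, and the controls and lung libraries lay close together. The median log2 ratio of ITGB4-high cells over control clone 1 was 0.41 over the 233 members (1.32-fold) and 0.03 over all 9530 expressed genes. Over control clone 3 it was 0.36 (1.28-fold) against -0.01. Between the control clones the members' median was 0.03, beside 0.04 over all genes. Ratios are from CPM with TMM scaling and a prior count of 2. In bulk RNA, a smaller share of cells with a transcript and less of it per cell cannot be told apart.

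ITGB4-high cells were above both controls for 163 of 233 members (70.0%), against 46.3% of all expressed genes, and below both for 61 (26.2%), against 44.9%. They were above all 5 other libraries for 140 members (60.1%, against 25.9% of all genes) and below all 5 for 22 (9.44%, against 25.5%). The middle of the distribution, from the lower to the upper quartile, ran from -0.02 to 0.70 over control clone 1 in the members and from -0.34 to 0.35 in all genes, so both quartiles stood higher. The mean over control clone 1 was lower than the median, at 0.22, with 12 members at -1 or less. Because the region was picked on this ratio, nothing is read from these shares.

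**Figure D1:**
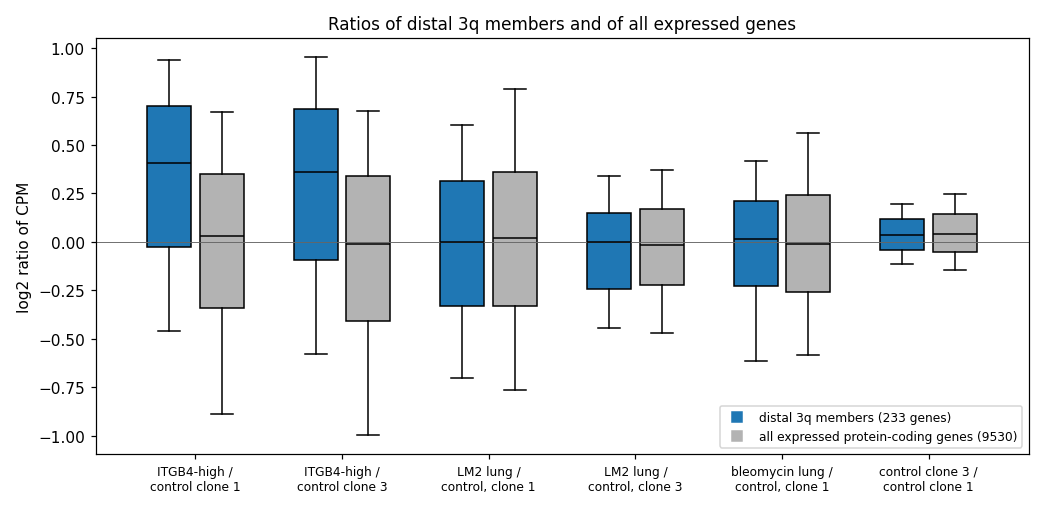
Log2 ratio of CPM for the 233 distal 3q members (blue) and all 9530 expressed protein-coding genes (grey) in 6 library pairs. Boxes span the quartiles with the median as a line and whiskers reach the 10th and 90th percentiles. The blue medians are at 0.41 and 0.36 in the ITGB4-high pairs and between 0.00 and 0.03 in the other 4.

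The lung libraries, whose ITGB4 level was near that of ITGB4-high cells, did not show the shift. Whether the shift goes with ITGB4 level was not tested. The members' median log2 ratio over the same clone's control was 0.00 in LM2 lung clone 1, 0.00 in LM2 lung clone 3 and 0.02 in the bleomycin lung library, beside 0.02, -0.02 and -0.01 over all expressed genes. Every lung library was above its own control for 66 members (28.3%, against 25.9% of all expressed genes) and below it for 66 (28.3%, against 28.5%), shares near the background. LM2 lung clone 1 and the bleomycin library share control clone 1, and the ITGB4-high ratios use the same controls.

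The per-gene test was edgeR's quasi-likelihood test over 15673 genes with Benjamini-Hochberg adjustment, in which all 233 members were tested. For ITGB4-high against control 0 members passed in either direction, against 0.0574% of all genes upward and 0.0319% downward. With no adjustment, p was under 0.05 for 91 members upward (39.1%, against 10.4% of all genes) and 14 downward (6.01%, against 14.2%). DESeq2 called 34 higher and 12 lower among 1503 genes called in all. DESeq2 was run without the filter on low counts, so its counts here and below are not shares of the 15673 genes. The clone as a replicate block gave 12 members (5 higher and 7 lower) among 363 genes, and leaving out LM2 lung clone 1 or clone 3 gave 160 and 156 in fits where 6611 and 6422 of all genes passed. The ITGB4-high side is 1 library, so its spread is borrowed from the groups of 2.

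The lung-recovered class joins both LM2 lung libraries and the bleomycin library, so its spread mixes trigger and clone. For lung-recovered cells against control, 2 members were called lower (0.23% of all genes were) and 0 higher (0.268%). At an unadjusted p under 0.05, 19 were higher (9.26% of all genes) and 25 lower (11.3%), and DESeq2 called 4 higher and 13 lower among 1209 genes. For lung-recovered against ITGB4-high cells, 1 member was called lower in the lung libraries (0.0766% of all genes were) and 0 higher (0.0319%). At an unadjusted p under 0.05, 88 members were lower (7.86% of all genes) and 11 higher (10.4%), and DESeq2 called 34 lower and 8 higher among 935 genes. Over the members the difference between the mean lung ratio and the mean ITGB4-high ratio had a median of -0.40, beside 0.00 over all expressed genes. The comparison with ITGB4-high cells uses the library on which the region was picked. Its counts and this median are therefore a description, and nothing is read from them. With the replicate block 0 members passed in either lung comparison (39 and 0 of all genes did), and 0 passed without control clone 1, control clone 3 or the bleomycin library. Without LM2 lung clone 1 the counts were 6 against control and 69 against ITGB4-high, among 393 and 1432 genes called. Without LM2 lung clone 3 they were 16 and 1, among 1012 and 37, the latter CHST2 in place of FBXO45.

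Along the arm the ITGB4-high ratio was uneven. In bins of 10 Mb by gene start, the median of the mean log2 ratio to the controls was 0.41 from 110 to 120 Mb (21 members) and 0.59 from 120 to 130 Mb (47). It was lower from 130 to 140 Mb, at 0.19 (29 members), and from 140 to 150 Mb, at 0.21 (26). From 150 to 160 Mb it was 0.46 (21), from 180 to 190 Mb 0.32 (34) and from 190 Mb to the last member 0.62 (29). The bins from 160 to 170 Mb (10 members, 0.17) and 170 to 180 Mb (16, 0.59) hold under 20 members each. All 9 bins had a median above 0, with the lower values in the stretch from 130 to 150 Mb and in the thin bin after 160 Mb.

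As a whole, the rest of chromosome 3 was close to all other genes. Its 309 expressed genes before 110 Mb had a median of 0.06 over control clone 1 and -0.01 over control clone 3. The 21 genes from 100 to 110 Mb, just outside the boundary, had a median of 0.22. That is above the member bins from 130 to 140 Mb (0.19), 140 to 150 Mb (0.21) and 160 to 170 Mb (0.17). Bins before 110 Mb ran from -0.23 (80 to 90 Mb) to 0.35 (70 to 80 Mb), each of these with 7 genes. Among 23 chromosomes, with chromosome 3 counted only before 110 Mb, medians of the mean ratio ran from -0.21 on chromosome 2 to 0.18 on chromosome 21. The members' value was 0.38. The other chromosomes were taken whole, which dilutes a shift of an arm or segment. Whether an arm or segment elsewhere reaches the members' value was not examined. In the lung libraries the bins of distal 3q lay between -0.10 and 0.07 as a mean of 3 ratios, with no bin as high as the lowest ITGB4-high bin.

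**Figure D2:**
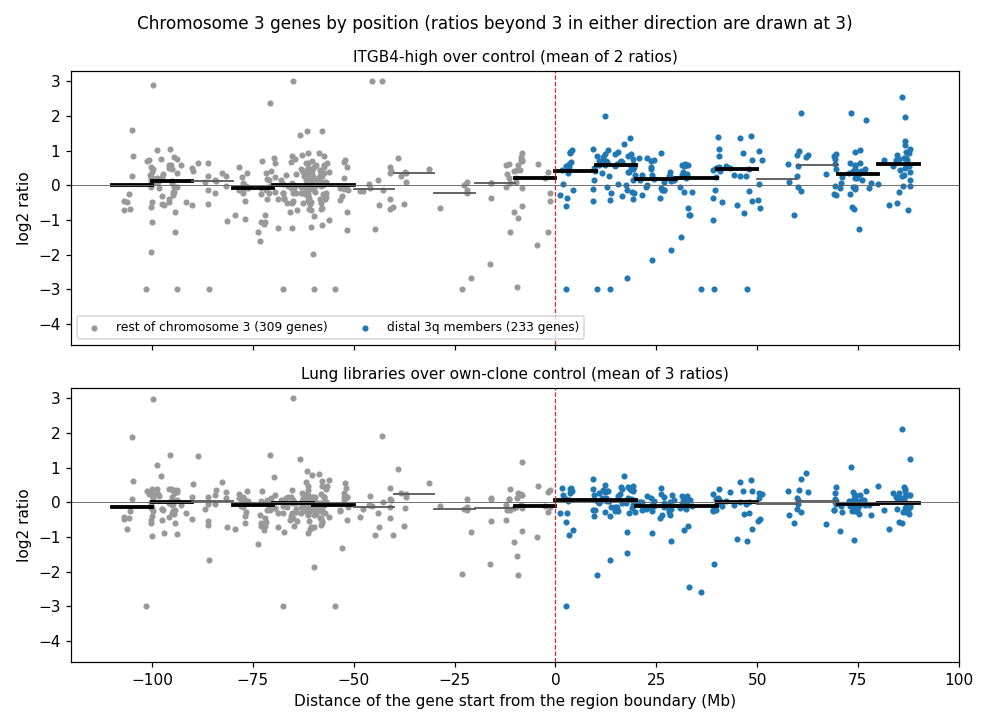
Log2 ratio of each expressed chromosome 3 gene against the distance of its start from the 110 Mb boundary (dashed line), for ITGB4-high cells over control (top) and lung libraries over their own control (bottom). Ratios beyond 3 either way are drawn at 3, and horizontal bars are medians of 10 Mb bins, thin where a bin has under 20 genes. Top bars to the right of the boundary lie between 0.17 and 0.62, bottom bars between -0.10 and 0.07.

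Genes on either side of the 2 thresholds differed gene by gene. Inside the boundary, the adhesion molecule gene NECTIN3, at 111.07 Mb, was at -0.22 and -0.36 over control clones 1 and 3, and PHLDB2, at 111.73 Mb, at 0.58 and 0.31. Outside it, CD47, the signal that restrains macrophage uptake, at 108.04 Mb, was at -1.29 and -1.40, and DZIP3, at 108.59 Mb, at -0.40 and -0.50. Between them, IFT57, at 108.16 Mb, was at 0.40 and 0.36, and CIP2A, at 108.55 Mb, at -0.08 and -0.37. By level, FAM43A at a mean of 7.72 CPM was left out with ratios of 1.31 and 0.82, and SHOX2 at 8.93 CPM was kept with -0.02 and -0.31. Genes in the region that the rule leaves out also had medians of the mean ratio above 0, with a wider spread. The median was 0.29 for 36 protein-coding genes of 2 to 8 CPM (quartiles -0.85 and 1.07). It was 0.47 for 34 genes of other types at 2 CPM or more (-0.13 and 0.91). For the 20 genes set aside by name it was 0.32 (-0.80 and 1.01), and the members' quartiles were -0.07 and 0.70.

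Of 232 pairs of neighbouring members, 117 had both mean ratios above 0, in a set where 165 of 233 members were above 0. Neighbours are adjacent members, so genes under 8 CPM or set aside by name are passed over. The longest run with every member above both controls was 11 members from RABL3 (120.69 Mb) to HSPBAP1 (122.74 Mb). Its median mean ratio was 0.67, with a range from 0.36 to 2.0. The next was 10 members from UBXN7 (196.35 Mb) to DLG1 (197.04 Mb), with a median of 0.79 and a range from 0.31 to 1.96. In the lung libraries these runs had medians of 0.13 and 0.04. The second run holds RNF168, the ubiquitin ligase of DNA damage sites, WDR53, FBXO45, PAK2, SENP5, which removes SUMO from proteins, NCBP2, the cap-binding subunit of nuclear RNA, and DLG1, a polarity scaffold. Of these, SENP5 had 106 CPM in ITGB4-high cells, 55.6 and 54.0 in control clones 1 and 3, 56.3 and 50.9 in LM2 lung clones 1 and 3, and 53.8 in the bleomycin library. SENP5 was thus high in the ITGB4-high library, with the other 5 libraries within 50.9 to 56.3 CPM.

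Starting within 1 kb of each other on opposite strands, 17 pairs of members stood head to head. In 9 of them both members had a mean ITGB4-high ratio above 0, beside the 117 of 232 neighbouring pairs. The absolute difference within a pair had a median of 0.63, and over all neighbouring pairs, which include head-to-head ones, 0.55. WDR53 and FBXO45, which overlap at their starts, were at 1.16 and 1.96, and NCBP2 and NCBP2-AS2 at 0.79 and 0.62. MGLL and SEC61A1, which overlap likewise, were at -2.68 and 0.84, the widest pair. Of the 233 members, 72 overlap another gene detected on the opposite strand, and their counts are uncertain to the extent that the counting ignored strand. Among the members described below, these include B3GNT5, FBXO45, MYLK, PTX3, MGLL, IQCG, RPL35A, FAM162A, PIK3CA, ACTL6A, EIF4A2, SMC4, MBNL1, KPNA4 and LPP.

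By role, the genes of translation and entry into the endoplasmic reticulum were among the most even. Of 21 genes listed, 20 were members, and ITGB4-high cells were above both controls for 19 and below both for 1, with a median mean ratio of 0.51 (0.38 over all members). EIF4G1, the scaffold of the cap-binding complex that recruits ribosomes, had 1152 CPM in ITGB4-high cells, 585 and 600 in control clones 1 and 3, 804 and 629 in LM2 lung clones 1 and 3, and 589 in the bleomycin library. ITGB4-high cells had the highest EIF4G1 level and LM2 lung clone 1 the next. SSR3, a subunit of the translocon-associated complex, was at 743 CPM against 412 and 374 in the controls, 671 and 449 in the LM2 lung libraries, and 406 in the bleomycin library. RPL35A, a ribosomal protein of the large subunit, was at 0.45 and 0.34 over control clones 1 and 3, and the RNA helicase gene EIF4A2 at 0.52 and 0.42. In the lung libraries the list's medians were 0.19, 0.07 and 0.02 for LM2 clone 1, LM2 clone 3 and bleomycin, with 7 of 20 above control in all 3 and 1 below. No gene of the list passed edgeR in either comparison with control, which held for all 7 lists apart from 1 adhesion gene in lung cells.

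EIF5A2, the second eIF5A gene, which helps ribosomes through difficult stretches, was the member of this list farthest above control. It had 102 CPM in ITGB4-high cells, 22.3 and 25.4 in the controls, 56.2 and 27.1 in LM2 lung clones 1 and 3, and 34.4 in the bleomycin library, which is 4.27-fold over control for ITGB4-high cells as the mean of the log2 ratios. The values of the LM2 lung pair did not sit together, since clone 3 was at 0.09 over its control and clone 1 at 1.33.

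Ubiquitin and proteasome genes numbered 13 members of 14 listed, with a median mean ratio of 0.51, 11 above both controls and 2 below both. FBXO45, the substrate receptor of an atypical ubiquitin ligase, had 192 CPM in the ITGB4-high library, 51.2 and 47.3 in control clones 1 and 3, 71.2 and 62.4 in the LM2 lung pair and 63.7 in bleomycin lung cells. FBXO45 was highest in ITGB4-high cells, and the 3 lung libraries (65.8 ± 4.73 CPM, SD, n = 3) lay above both controls (49.2 ± 2.76 CPM, SD, n = 2). It was the 1 member called between lung-recovered and ITGB4-high cells (log2 fold change -1.55, SE 0.14, edgeR adjusted p = 0.0409), a comparison that uses the ITGB4-high library on which the region was picked. Over 9 alternatives its adjusted p ran from 2.93e-11 to 0.214, and 4 of them passed. It was not called with the replicate block (0.0994) or without LM2 lung clone 3 (0.0563). FBXO45 was also not called without control clone 1, control clone 3 or the bleomycin library, with log2 fold changes of -1.52, -1.54 and -1.52. PSMD2, a base subunit of the proteasome cap, was at 0.49 and 0.34 over the controls, and UBXN7 at 0.29 and 0.32.

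Membrane traffic and organelle genes had 17 members of 21 listed, with 15 above both controls and 1 below both, and a median of 0.52. TFRC, the transferrin receptor that brings iron into cells, had 788 CPM in ITGB4-high cells, 141 and 127 in control clones 1 and 3, 1016 and 221 in LM2 lung clones 1 and 3, and 929 in the bleomycin library. TFRC was the member farthest above control in ITGB4-high cells (2.48 and 2.63 on the log2 scale), and LM2 lung clone 1 and the bleomycin library were higher still. The lung libraries were apart from each other, at 2.85, 0.79 and 2.72 over their own controls, which is 722 ± 436 CPM (SD, n = 3), and TFRC did not pass the test. KPNA4, an importin that carries proteins into the nucleus, was at 0.96 and 1.02 in ITGB4-high cells, and ATP13A3, a transporter of polyamines, at 0.84 and 0.63. AP2M1, an adaptor subunit of clathrin coats, was at -0.03 and -0.17, and MFN1, which fuses mitochondria, at 0.72 and 0.77.

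Chromatin, transcription and genome maintenance genes had 23 members of 25 listed, 17 above both controls and 4 below both, with a median of 0.47. The splicing regulator gene MBNL1 had 707 CPM in ITGB4-high cells, 452 and 503 in the controls, 500 and 469 in LM2 lung clones 1 and 3, and 475 in the bleomycin library. MBNL1 was highest in ITGB4-high cells, with the other 5 libraries in a band from 452 to 503 CPM. SMC4, the condensin subunit that compacts mitotic chromosomes, was at 0.07 and 0.00 over the controls, and ZBTB38 at 0.30 and 0.28. TBL1XR1, a subunit of corepressor complexes, was at 0.43 and 0.24 in ITGB4-high cells and at -0.70, -0.81 and -0.34 in LM2 lung clone 1, LM2 lung clone 3 and the bleomycin library.

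Signalling genes had 13 members of 16 listed, 9 above both controls, 3 below both and a median of 0.30, beside 163 and 61 of the 233 members. PAK2, a kinase that answers to Rac and Cdc42, had 320 CPM in ITGB4-high cells, 127 and 139 in the controls, 172 and 152 in LM2 lung clones 1 and 3, and 169 in the bleomycin library. PAK2 was highest in ITGB4-high cells and the lung libraries lay between those cells and the controls. PIK3CA, the catalytic subunit gene of PI3-kinase, was at 110 CPM in ITGB4-high cells, 135 and 126 in the controls, 97.7 and 130 in LM2 lung clones 1 and 3, and 114 in the bleomycin library. PIK3CA was thus lower in ITGB4-high cells than in either control, at -0.29 and -0.19, with 1 lung library inside the range of the controls. GSK3B, a kinase of the WNT and insulin pathways, was at 0.45 and 0.36, and GNB4, a G protein beta subunit, at 0.05 and -0.09.

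The adhesion and cell surface list had 9 members of 19 listed, 5 above both controls and 4 below both, with a median of 0.06. Differences between lists were not tested. PLXNA1, a semaphorin receptor, had 185 CPM in ITGB4-high cells, 83.1 and 79.4 in the controls, 150 and 139 in LM2 lung clones 1 and 3, and 129 in the bleomycin library. The ITGB4-high and all 3 lung libraries were above both controls for PLXNA1, which did not pass in lung cells (log2 fold change 0.78, edgeR adjusted p = 0.0631). MME, a cell-surface peptidase of basal breast cells, was at 530 CPM against 716 and 851, with LM2 lung clones 1 and 3 at 154 and 483 and the bleomycin library at 650. LPP, a focal adhesion protein, was at 0.09 and 0.02.

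**Figure D3:**
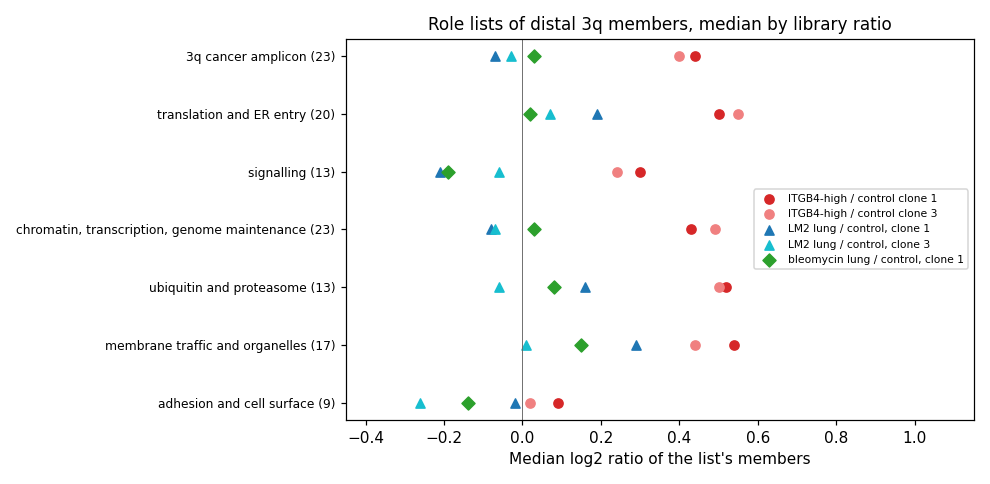
Median log2 ratio of each role list's distal 3q members (number in brackets) in 5 library ratios. ITGB4-high ratios (red tones) lie between 0.24 and 0.55 in the first 6 lists and at 0.09 and 0.02 in the adhesion list, and lung ratios (blue and green) between -0.26 and 0.29 in all 7.

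Genes named in reports of the 3q cancer amplicon followed the arm on average but not one by one. Of 28 listed, 23 were members, with 18 above both controls, 3 below both and a median of 0.42. SOX2, TNIK, LAMP3 and MUC4 were not members, and TLOC1 is an older name of SEC62, which is counted under its present name. SKIL, a brake on SMAD signalling, was at 0.96 and 1.02 over control clones 1 and 3, DCUN1D1, which promotes cullin neddylation, at 0.73 and 0.57, and PDCD10 at 0.71 and 0.54. SENP2 (0.65 and 0.66), ZNF639 (0.63 and 0.59), ACTL6A, a subunit of BAF chromatin remodelers (0.43 and 0.53), DVL3, a WNT signal relay (0.44 and 0.40), ATP11B (0.36 and 0.37) and SEC62 (0.31 and 0.20) were lower down the order. PRKCI (-0.01 and -0.08), FXR1 (0.08 and 0.02), GOLIM4 (0.15 and 0.02) and BCL6 (0.04 and -0.18) were near 0. MECOM, a zinc finger regulator of stem cells, had 40.4 CPM in ITGB4-high cells, 67.5 and 80.6 in the controls, 37.9 and 67.3 in LM2 lung clones 1 and 3, and 42.9 in the bleomycin library. MECOM was lower in ITGB4-high cells than in both controls, at -0.74 and -1.0. LM2 lung clone 1 and the bleomycin library were also below both, at -0.83 and -0.65 over their own control. LM2 lung clone 3 was at -0.26 over its own control and level with control clone 1 (67.3 and 67.5 CPM).

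For 2 amplicon members that differed in direction, PAK2 and MECOM, the 250 bases before the RefSeq start (GRCh38.p14) are shown with CG dinucleotides in capitals, chosen among the named members whose window holds no annotated exon. PAK2 lies at chr3:196739607-196739856 on the plus strand and MECOM at chr3:169663713-169663962 on the minus strand.
PAK2: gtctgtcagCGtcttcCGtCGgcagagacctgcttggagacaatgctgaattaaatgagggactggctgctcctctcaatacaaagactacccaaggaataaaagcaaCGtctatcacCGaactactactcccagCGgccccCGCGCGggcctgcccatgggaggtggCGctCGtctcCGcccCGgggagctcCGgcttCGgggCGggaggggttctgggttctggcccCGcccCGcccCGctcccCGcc
MECOM: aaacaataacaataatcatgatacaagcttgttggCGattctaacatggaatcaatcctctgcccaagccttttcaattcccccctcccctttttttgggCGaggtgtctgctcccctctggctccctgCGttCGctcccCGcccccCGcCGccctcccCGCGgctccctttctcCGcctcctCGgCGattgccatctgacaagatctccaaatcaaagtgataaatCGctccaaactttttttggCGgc

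The PAK2 window holds 20 CG dinucleotides and 64.4% G and C bases, and the MECOM window 14 and 53.6%. Of the members, 205 had a RefSeq promoter entry, and 173 of these started within 1 kb of the GENCODE start used here. Their windows held a median of 20 CG dinucleotides, beside 22 over 6627 expressed genes with such an entry. Searched on both strands, TATAAA was in 6.36% of member windows and 4.36% of all, the NRF1 core GCATGCGC in 5.78% and 5.39%, and the ETS core CCGGAAG in 13.9% and 18.8%. None of the 3 was found in the PAK2 or MECOM window, which says only that these letters are not there. Among members with such a window, the 10 with a ratio of 1 or more over both controls had a median of 23 CG dinucleotides, and the 5 with -1 or less had 18.

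A log2 ratio of 1 or more over both controls was reached by 13 members, -1 or less by 11, and 209 lay between or were split. On the mean of both ratios, 19 of 233 members were at 1 or more, beside 396 of 9530 expressed genes, and 12 at -1 or less, beside 886. B3GNT5, which starts lacto-series glycolipids, had 268 CPM in ITGB4-high cells, 66.5 and 61.2 in the controls, 168 and 95.7 in LM2 lung clones 1 and 3, and 137 in the bleomycin library. B3GNT5 did not overlap between controls and the other 4 libraries, with ITGB4-high cells on top. ST6GAL1, which caps N-glycans with sialic acid, was at 128 CPM against 35.3 and 33.9, with 36.9 and 38.5 in LM2 lung clones 1 and 3 and 57.9 in the bleomycin library. CSTA, a protease inhibitor of the cornified envelope, was at 42.4 CPM against 11.3 and 9.69, with 18.1 and 9.38 in the LM2 lung libraries and 4.16 after bleomycin. CSTA was thus high in ITGB4-high cells and lowest in bleomycin lung cells. MLF1 (1.44 and 1.42) and TSC22D2 (1.39 and 1.38) completed the 8 members farthest above control.

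The 8 members farthest below control in ITGB4-high cells were CCDC80, MYLK, PTX3, PLSCR4, FSTL1, TM4SF1, MGLL and SLCO2A1. CCDC80, a secreted matrix protein, had 12.0 CPM in ITGB4-high cells, 793 and 1227 in the controls, 36.9 and 244 in LM2 lung clones 1 and 3, and 48.9 in the bleomycin library, which is 81.7-fold lower in ITGB4-high cells than in control. The ITGB4-high and all 3 lung libraries were below both controls for CCDC80. FSTL1, a secreted glycoprotein of mesenchymal cells, was at 69.7 CPM against 925 and 1291, with 153 and 418 in the LM2 lung libraries and 225 in the bleomycin library. MYLK, the kinase that switches on smooth muscle myosin, was at 1.02 CPM against 51.1 and 42.2, with 9.52 and 17.0 in the LM2 lung libraries and 21.2 in the bleomycin library. PLSCR4 was at 4.74 CPM in ITGB4-high cells, 67.1 and 84.6 in the controls and below its own control in each lung library, at -3.31, -2.07 and -2.37 in LM2 clone 1, LM2 clone 3 and bleomycin. For these 4 genes ITGB4-high cells were lowest, the lung libraries in between and the controls on top.

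PTX3, a soluble pattern-recognition protein of inflamed tissue, showed another order. It was at 32.4 CPM in ITGB4-high cells, 595 and 629 in the controls, 585 and 367 in LM2 lung clones 1 and 3, and 103 in the bleomycin library. PTX3 in LM2 lung clone 1 was at the level of its control (-0.02), while LM2 lung clone 3 (-0.78) and the bleomycin library (-2.53) were below theirs. SLCO2A1, the prostaglandin transporter, was at -2.03 and -2.28 in ITGB4-high cells and at -0.47, -0.98 and -1.17 in LM2 lung clones 1 and 3 and the bleomycin library.

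**Figure D4:**
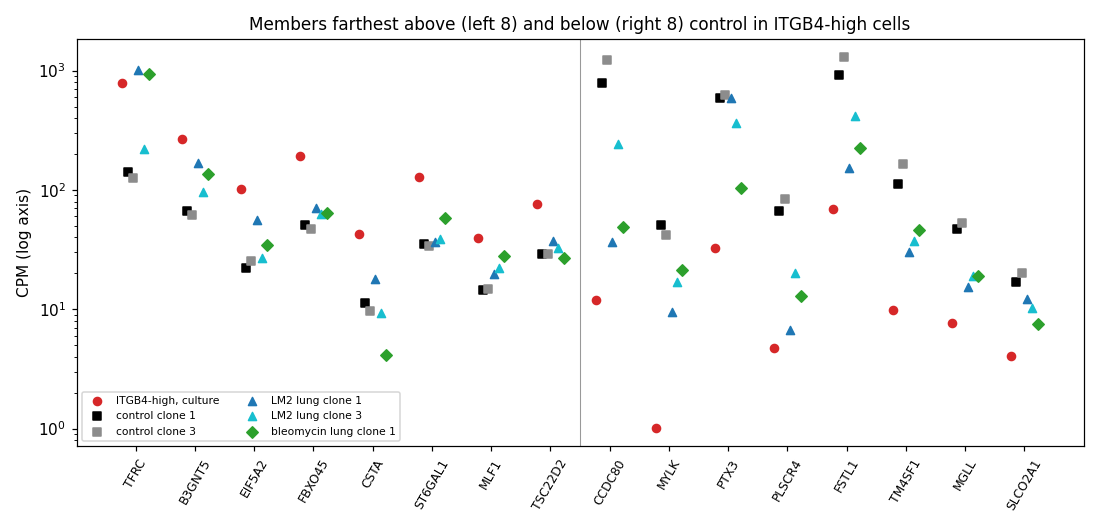
CPM on a log axis in each of the 6 libraries for the 8 distal 3q members farthest above control in ITGB4-high cells and the 8 farthest below. The control squares are farthest apart for CCDC80 (793 and 1227) and TM4SF1 (112 and 164). ITGB4-high cells (circles) are highest for 7 of the left 8 and lowest for all of the right 8. TFRC is higher in LM2 lung clone 1 (1016) and bleomycin lung (929) than in ITGB4-high cells (788).

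MGLL and TM4SF1 were the 2 members that edgeR called lower in lung-recovered cells. Other members, such as CCDC80 and PLSCR4, had larger mean falls and did not pass. MGLL, the monoacylglycerol lipase, had 7.73 CPM in ITGB4-high cells, 47.1 and 53.3 in control clones 1 and 3, 15.5 and 19.0 in LM2 lung clones 1 and 3, and 19.0 in the bleomycin library. The lung libraries (17.8 ± 2.02 CPM, SD, n = 3) did not overlap the controls (50.2 ± 4.38, SD, n = 2), and MGLL fell by 1.49 on the log2 scale (SE 0.16, edgeR adjusted p = 0.0361). TM4SF1, a membrane protein of the tetraspanin-like L6 family, was at 9.84 CPM in ITGB4-high cells, 112 and 164 in the controls, 30.1 and 37.4 in LM2 lung clones 1 and 3, and 46.5 in the bleomycin library. TM4SF1 fell by 1.86 (SE 0.24, edgeR adjusted p = 0.0491). The lung spread mixes trigger and clone here, and the rule names the lung ratios, so both calls are a description. Over 10 alternatives each, the adjusted p of MGLL ran from 1e-10 to 0.5 and that of TM4SF1 from 1.53e-22 to 0.508. Neither passed with the replicate block (0.0556 and 0.0686), without control clone 1 (0.28 and 0.279), control clone 3 (0.5 and 0.508) or the bleomycin library (0.136 and 0.141), and TM4SF1 also not without the ITGB4-high library (0.0514). MGLL overlaps SEC61A1 on the opposite strand, so part of its counts is uncertain.

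Other members lay on one side of control in every lung library without passing the test. IQCG, a cilium and flagellum gene, stood at 66.1 and 23.9 CPM in LM2 lung clones 1 and 3 and 28.2 in the bleomycin library, while control clones 1 and 3 had 14.7 and 15.0 and the ITGB4-high library 14.5. IQCG was thus above control in lung libraries alone, and it overlaps RPL35A on the opposite strand. FAM162A, a mitochondrial protein induced in low oxygen, was at 35.5 and 33.3 CPM in the LM2 lung libraries, 36.7 in the bleomycin library and 38.3 in ITGB4-high cells, against 24.9 and 24.8 in the controls. FAM162A lay in a narrow band of 33.3 to 38.3 CPM in these 4 libraries.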

How the data were processed

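Poly(A) RNA was made into strand-marked libraries and, per the submitters' processing notes, aligned with STAR 2.7.1a to hg38. The authors deposited raw read counts, whole numbers for each gene and library. Which counter, annotation and strand mode were used is not given in the sources used here. Of 58336 rows, 58216 matched GENCODE release 29 identifiers and 120 did not. The 3 columns of lung libraries and 3 of cultured cells were mapped by their descriptions.

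Members were selected on CPM over library totals. Levels and ratios use TMM factors (0.947 to 1.032) and a prior count of 2. Tests were edgeR 4.0.16 (R 4.3.3) quasi-likelihood fits of all 6 libraries after filterByExpr (minimum count 10), with Benjamini-Hochberg adjustment at 0.05: 4 groups (2 residual degrees of freedom) for ITGB4-high, and 3 classes (3 degrees) for lung cells. The scripts were tested on simulated data. DESeq2 1.42.0, RLE factors, no filter, left-out libraries and a clone block were alternatives. Clone numbers in the titles pair libraries of the same clone, though the clone deviations of the control and LM2 pairs had r = 0.00115 over genes. Titles, not cultures, give the pairing.

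Named members were the 8 each way farthest from control in ITGB4-high cells, ranked by the nearer of the 2 ratios, the 6 each way in lung libraries, ranked by the nearest of 3, those of an amplicon list, and up to 4 per role list with the highest mean CPM. Members of runs and head-to-head pairs, genes at the thresholds, ITGB5 and HLTF were named after their values were seen. The members, lists and tests were chosen with earlier results of these data known. Promoter sequences are RefSeq's. One member that the naming rule picks is not reported here.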

Additional observations from a re-analysis of the deposited data

Results flagged for a closer look

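Responses to LM2 lungs went in opposite directions in clones 1 and 3, past 0.5 on the log2 scale each way, for 2 members, ITGB5 and HLTF, and the difference was not tested because each clone has 1 library per condition. ITGB5, the beta-5 integrin subunit, was at 0.60 in clone 1 (101 CPM against 66.5) and -1.03 in clone 3 (39.5 against 80.8). HLTF, a helicase of damaged replication forks, was at -1.59 in clone 1 (40.0 CPM against 121) and 0.52 in clone 3 (168 against 117).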

How the results depend on the processing

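Counts of called members depended on the processing, while the medians moved little. For ITGB4-high against control, where 0 members passed, RLE factors gave 6, no filter on low counts 65, DESeq2 46 and the replicate block 12 (among 74, 2707, 1503 and 363 of all genes, against 14), and left-out libraries gave 0 to 160 (among 0 to 6611). For lung-recovered against control, where 2 passed, no filter gave 24, DESeq2 17 and the replicate block 0 (among 2152, 1209 and 39, against 78), and left-out libraries 0 to 16 (among 0 to 1012). For lung-recovered against ITGB4-high, where 1 passed, no filter gave 51, DESeq2 42 and the replicate block 0 (among 1406, 935 and 0, against 17), and left-out libraries 0 to 69 (among 0 to 1432). Where a left-out library left a group with 1, that library was assumed to vary like the other groups. The cause of these differences was not tested. The median member ratio of ITGB4-high over control, 0.38 as the mean of both ratios, was 0.43 at a mean CPM of 30 or more and 0.33 for starts at 130 Mb or later, and 0.36 to 0.41 with a control left out. That of the lung libraries, 0.01, was 0.02 with RLE factors, -0.01 at a mean CPM of 2 or more, 0.03 at 30 or more and -0.03 from 130 Mb, and 0.00 to 0.01 with a library left out. Of 324 values of named members under other scalings, 320 stayed within 1 SD and 1 changed sign. Members at low CPM are limited by depth.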
